A study of Homo sapiens with 11 samples.

Results

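The comparison described here sets HCT116 cells kept for 48 h with GTEA7, a triterpenoid extract of the bracket fungus Ganoderma, against the same cells kept with the solvent DMSO. Its libraries were picked out by the sample labels and are 7 of the 11 in the series, 4 with GTEA7 and 3 with DMSO. The other 4 libraries came from cells given GTEA1, a second extract, also for 48 h, and serve here to show where GTEA7 differs. HCT116 is an established line from a human colorectal carcinoma, labelled as epithelial with a ras mutation, and every group carries that genotype. Stemness and migration are the properties of colon cancer named in the series title. All libraries are labelled batch 1. The labels state no dose and no composition of the extracts, and they do not say that replicates were separate cultures, so every p-value below measures only the spread between these samples.

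Several of the pathways that moved are feedback circuits. Cells sense sterols in the membrane of the endoplasmic reticulum: when sterols are scarce, the factor SREBP2 is released and switches on the genes of cholesterol synthesis and uptake, while the related SREBP1 drives fatty acid synthesis. Oxysterols act through the LXR receptors, which switch on cholesterol export. BMP, Wnt and Notch ligands steer stem cell and differentiation decisions in the intestinal epithelium, and each pathway switches on inhibitors of itself, so that such target genes serve as readouts of its activity.

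Polyadenylated RNA was counted per gene, and 17963 of 61464 genes had enough counts to be tested. Levels are given as CPM, the count scaled to a common library size, after TMM scaling (an edgeR factor that corrects for composition). They are not divided by gene length, so levels of different genes are not compared. A log2 fold change is followed by its standard error and a mean CPM by its SD, with n = 3 for DMSO and n = 4 for GTEA7. A gene is said to rise or fall when its adjusted p in edgeR's quasi-likelihood test, corrected over all tested genes, was under 0.05. Total counts ranged from 13866350 to 17431515 in DMSO and from 14955685 to 19304211 in GTEA7, and 0 pairs of libraries held identical values. The first principal component of the 7 libraries held 39% of the variance and separated the groups. Summed markers of epithelial identity stood at 2230 to 2380 CPM in DMSO and 2230 to 2320 CPM in GTEA7, mostly from the keratins KRT8, KRT18 and KRT19. The intestinal factor CDX1 was at 0, and CDX2 was at 11.6 ± 0.56 CPM in DMSO. VIL1, GPA33 and LGALS4 had 28, 33 and 19 counts over all 11 libraries, too few to be tested. Markers of immune cells summed to at most 1.84 CPM, with CD3E and CD68 at 0. Endothelial markers summed to 9.73 to 12.3 CPM over both groups. Fibroblast markers, of which LUM was at 0 and COL1A1 made up most, summed to 54 to 55.4 CPM in DMSO and 37 to 46.1 CPM in GTEA7. Neural markers summed to 47.3 to 49.1 and 39 to 42.1 CPM, with ELAVL4 at 0. MAP2 made up most of this sum (38.2 ± 0.52 CPM in DMSO and 33.1 ± 1.6 CPM in GTEA7). The part of the fibroblast and neural differences in the results below was not tested.

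GTEA7 changed many genes by small amounts and few genes strongly. In all, 4036 of 17963 tested genes (22.5%) passed the test, 2159 of them higher (12%) and 1877 lower (10.4%). The median fold was 1.16 among those that rose and 0.831 among those that fell. Without TMM scaling, by library size only, the split was 1255 higher and 2954 lower, which moved the all-gene median on the log2 scale from -0.01 to -0.06, so directions of small changes depend on the scaling. At least 2-fold changes were found in 104 genes (0.579%), 53 higher and 51 lower. The GTEA7 and DMSO libraries did not overlap in 5485 genes (30.5%), whether called or not, and 20.4% of genes were both called and without overlap. For GTEA1, measured against the same DMSO libraries, 12895 genes (71.8%) passed and 3768 (21%) changed by at least 2-fold. In RNA from whole cultures, fewer cells that make an RNA and less RNA per cell cannot be told apart. Tested directly, 13056 genes (72.7%) differed between GTEA7 and GTEA1. Of all tested genes, 4.82% rose with GTEA7 and were also higher than with GTEA1, and 3.95% fell and were also lower.

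Base composition moved with direction. Genes that rose had a median GC content of 44.7% and those that fell 56.8%, against 49.5% over all tested genes. Across 17089 genes with a value, Spearman's rho between log2 fold change and GC content was -0.26, as a description. When each library's trend with GC content was removed, an alternative chosen after seeing the data, 3512 genes passed, 1946 higher and 1566 lower, and 2893 of these were among the 4036. Counts and calls under this fit are given below where they differ.

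Of the 12 largest rises 5 were genes of lipid metabolism. By rule, the 12 genes with the largest rises are named, among genes that passed with a mean of at least 1 CPM over the 7 libraries and no overlap between groups. LIPG (endothelial lipase), INSIG1, MSMO1, HMGCS1 and IDI1 are these 5 and are described below, as are the aldehyde dehydrogenase ALDH1A3, the cystine transporter SLC7A11 and the monooxygenase CYP1A1. FGFBP1, a secreted carrier of fibroblast growth factors, stood at 3.17, 4.86 and 3.59 CPM in DMSO and 10.8, 11.7, 10.8 and 9.92 CPM in GTEA7 (1.47 ± 0.12, adjusted p = 3.12e-14). The long noncoding RNA ENSG00000231683 went from 0.409 ± 0.17 to 1.62 ± 0.28 CPM (2.00 ± 0.31, adjusted p = 1.68e-06). The other two carry IDs outside Ensembl that the files do not pair with genes, and rose by 1.46 each on the log2 scale.

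The largest falls were led by developmental and signalling genes. ATOH8, SMAD7, DLX2 and ID3 belong to BMP signalling, NOTUM to Wnt signalling and ABCA1 to cholesterol export. SAMD11, a gene whose product holds a protein interaction domain, stood at 11.3, 10.6 and 11.7 CPM in DMSO and 3.51, 2.46, 2.48 and 3.15 CPM in GTEA7 (-1.95 ± 0.13, adjusted p = 7.39e-18). LINC02593, a noncoding gene, stood at 10.2, 10.3 and 10 CPM in DMSO and 4.89, 4.35, 4.54 and 4.73 CPM in GTEA7 (-1.14 ± 0.11). In these genes every GTEA7 library lay below every DMSO library, which the naming rule required. CXCR4, a chemokine receptor tied to cell migration, IGFBP5, which binds insulin-like growth factors, UTS2B, a peptide hormone gene, and the unclassified transcript ENSG00000279692 complete the 12, of which UTS2B fell by 1.31 and ENSG00000279692 by 1.25 on the log2 scale.

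Genes of cholesterol synthesis and uptake rose as a group. Of 34 tested members, 27 rose (79.4%, against 12% of all genes) and 1 fell, and the median log2 fold change was 0.69, against -0.01 over all genes. With GC trends removed the counts were again 27 and 1, and with library size only 27 and 3. The regulatory sequence is shown for members on which the result turns: SREBF2, which encodes the regulator, and 3 of the strongest rises. Each is the 250 bases before the RefSeq transcription start (GRCh38.p14, strand given, 5′ to 3′ along the gene, position -1 next to the start), with matches in capitals. The motifs searched on both strands were TCACNCCAC, a classic form of the sterol regulatory element, and CCAAT, the site of the factor NF-Y, which is known to act beside SREBP. The motifs do not overlap each other here.
SREBF2 (chr22:41832855-41833104, + strand): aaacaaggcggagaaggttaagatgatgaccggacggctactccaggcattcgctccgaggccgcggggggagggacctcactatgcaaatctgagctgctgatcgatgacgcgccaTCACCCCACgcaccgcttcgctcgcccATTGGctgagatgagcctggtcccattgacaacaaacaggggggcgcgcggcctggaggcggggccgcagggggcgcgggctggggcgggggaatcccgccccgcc
INSIG1 (chr7:155297628-155297877, + strand): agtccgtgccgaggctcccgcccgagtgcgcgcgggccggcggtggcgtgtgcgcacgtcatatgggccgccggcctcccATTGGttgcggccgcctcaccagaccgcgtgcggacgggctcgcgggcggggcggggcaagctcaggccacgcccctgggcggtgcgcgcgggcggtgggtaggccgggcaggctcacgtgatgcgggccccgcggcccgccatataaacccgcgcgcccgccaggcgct
MSMO1 (chr4:165327419-165327668, + strand): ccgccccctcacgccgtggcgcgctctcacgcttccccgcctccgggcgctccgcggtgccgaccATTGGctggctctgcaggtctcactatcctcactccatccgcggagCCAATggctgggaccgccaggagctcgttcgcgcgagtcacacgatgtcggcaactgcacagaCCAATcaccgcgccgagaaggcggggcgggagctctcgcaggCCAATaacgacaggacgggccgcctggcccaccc
HMGCS1 (chr5:43313413-43313662, - strand, the first of its listed starts): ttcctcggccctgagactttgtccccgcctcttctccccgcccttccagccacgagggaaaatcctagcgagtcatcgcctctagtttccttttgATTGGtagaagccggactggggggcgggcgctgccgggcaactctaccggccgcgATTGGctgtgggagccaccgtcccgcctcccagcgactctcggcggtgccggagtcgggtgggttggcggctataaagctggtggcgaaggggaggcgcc

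In the SREBF2 window the sterol element lies at -133 to -125 and an inverted CCAAT, read as ATTGG, at -106 to -102. HMGCS1 holds inverted copies at -155 to -151 and -100 to -96, INSIG1 holds an inverted copy at -170 to -166, and MSMO1 holds 4 copies between -185 and -30. Of the 34 members, 27 had a window in the table. CCAAT was found in 18 of these 27 (66.7%), against 4029 of 11562 tested genes with a window (34.8%) and 33% of all 27305. Its share was also above that of the tested genes in the lists of NRF2 targets (52.4%), BMP and TGF-beta genes (46.9%) and fatty acid genes (44.4%). The exact TCACNCCAC was found in SREBF2 alone (3.7%), against 0.875% of all windows, and SREBP is known to bind other spellings too. Such matches describe letters, not binding.

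Early enzymes of the pathway, from acetyl-CoA to farnesyl diphosphate, rose in 7 of 9 cases. HMGCS1 (ENSG00000112972), which makes HMG-CoA, stood at 81.3, 86.5 and 83.9 CPM in the DMSO libraries and at 231, 234, 236 and 237 CPM in the GTEA7 libraries. The groups did not overlap, and the GTEA7 libraries lay close together (2.79-fold, log2 fold change 1.48 ± 0.05, adjusted p = 1.01e-22). IDI1 (ENSG00000067064), the isopentenyl diphosphate isomerase, stood at 59.8, 60 and 57.1 CPM in DMSO and 157, 161, 159 and 152 CPM in GTEA7 (1.41 ± 0.05, adjusted p = 1.49e-28). In both genes every GTEA7 library exceeded every DMSO library, which the naming rule required. ACAT2 (0.92 ± 0.07), MVK (0.81 ± 0.07), MVD (0.75 ± 0.05) and FDPS (0.61 ± 0.05), which act at the start, in the middle and at the end of this stretch, rose less. PMVK (phosphomevalonate kinase) was at -0.18 ± 0.09 (adjusted p = 0.137) and was among the 3 members called lower with library size only (-0.23, adjusted p = 0.0497). GGPS1, which makes the geranylgeranyl precursor used for prenylation rather than for sterols, was at 0.12 ± 0.10 (adjusted p = 0.425).

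Enzymes from squalene to cholesterol rose in 12 of 13 cases. MSMO1 (ENSG00000052802), the sterol methyl oxidase, stood at 69, 66.8 and 68 CPM in DMSO and 181, 195, 188 and 204 CPM in GTEA7. Its groups lay far apart (2.82-fold, 1.50 ± 0.04, adjusted p = 9.65e-33), and with ALDH1A3 it had the smallest adjusted p of the comparison. SQLE, squalene epoxidase, stood at 101, 104 and 101 CPM in DMSO and 201, 208, 207 and 200.5 CPM in GTEA7 (1.00 ± 0.04). DHCR7, which carries out a final reduction, rose by 1.09 ± 0.04 on the log2 scale. The enzymes SC5D (0.74 ± 0.04), HSD17B7 (0.69 ± 0.07), LSS (0.56 ± 0.05), NSDHL (0.53 ± 0.07) and EBP (0.42 ± 0.09) rose less, and TM7SF2 (0.28 ± 0.07) and LBR (0.24 ± 0.04), the alternative sterol reductases, least. CYP51A1, the lanosterol demethylase, rose from 1.66 ± 0.26 to 3.03 ± 0.19 CPM (0.85 ± 0.18, adjusted p = 0.000279), but its pseudogene CYP51A1P2 rose too (1.35 ± 0.27), so the division of reads between the copies is uncertain. FDFT1, squalene synthase, was the member that did not pass: it stood at 2.76, 18.1 and 2.55 CPM in DMSO and 6.16, 7.06, 7.02 and 38.3 CPM in GTEA7. DMSO replicate 2 and GTEA7 replicate 4 were high, the groups overlapped, and without GTEA7 replicate 4 its log2 fold change of 0.76 ± 1.05 turned to -0.28.

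Sterol uptake and sensing genes followed. INSIG1 (ENSG00000186480), the sterol-responsive anchor that retains SREBP, stood at 58.5, 61.2 and 61.3 CPM in DMSO and 186, 189.6, 186 and 202 CPM in GTEA7. This was the largest rise of the list (3.16-fold, 1.66 ± 0.05, adjusted p = 4.2e-21), and its groups did not overlap, which the naming rule required. The sterol carrier STARD4 (0.89 ± 0.04) and the lysosomal exporter NPC1 (0.36 ± 0.05) also rose. SREBF2 itself stood at 188, 194 and 202 CPM in DMSO and 302, 302, 293 and 310.4 CPM in GTEA7 (0.63 ± 0.04), and SREBF1 rose less (0.31 ± 0.04). NPC2 (0.22 ± 0.06) lost its call without DMSO replicate 1 or 3 (adjusted p = 0.0609 and 0.0641). MYLIP, a ubiquitin ligase and known LXR target, was the member that fell, from 22.1 ± 1.4 to 15.1 ± 0.22 CPM (-0.54 ± 0.07, adjusted p = 3.79e-08). NPC1L1, the intestinal sterol importer, was below 1.3 CPM in every library and did not pass (-0.37 ± 0.29).

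**Figure D1:**
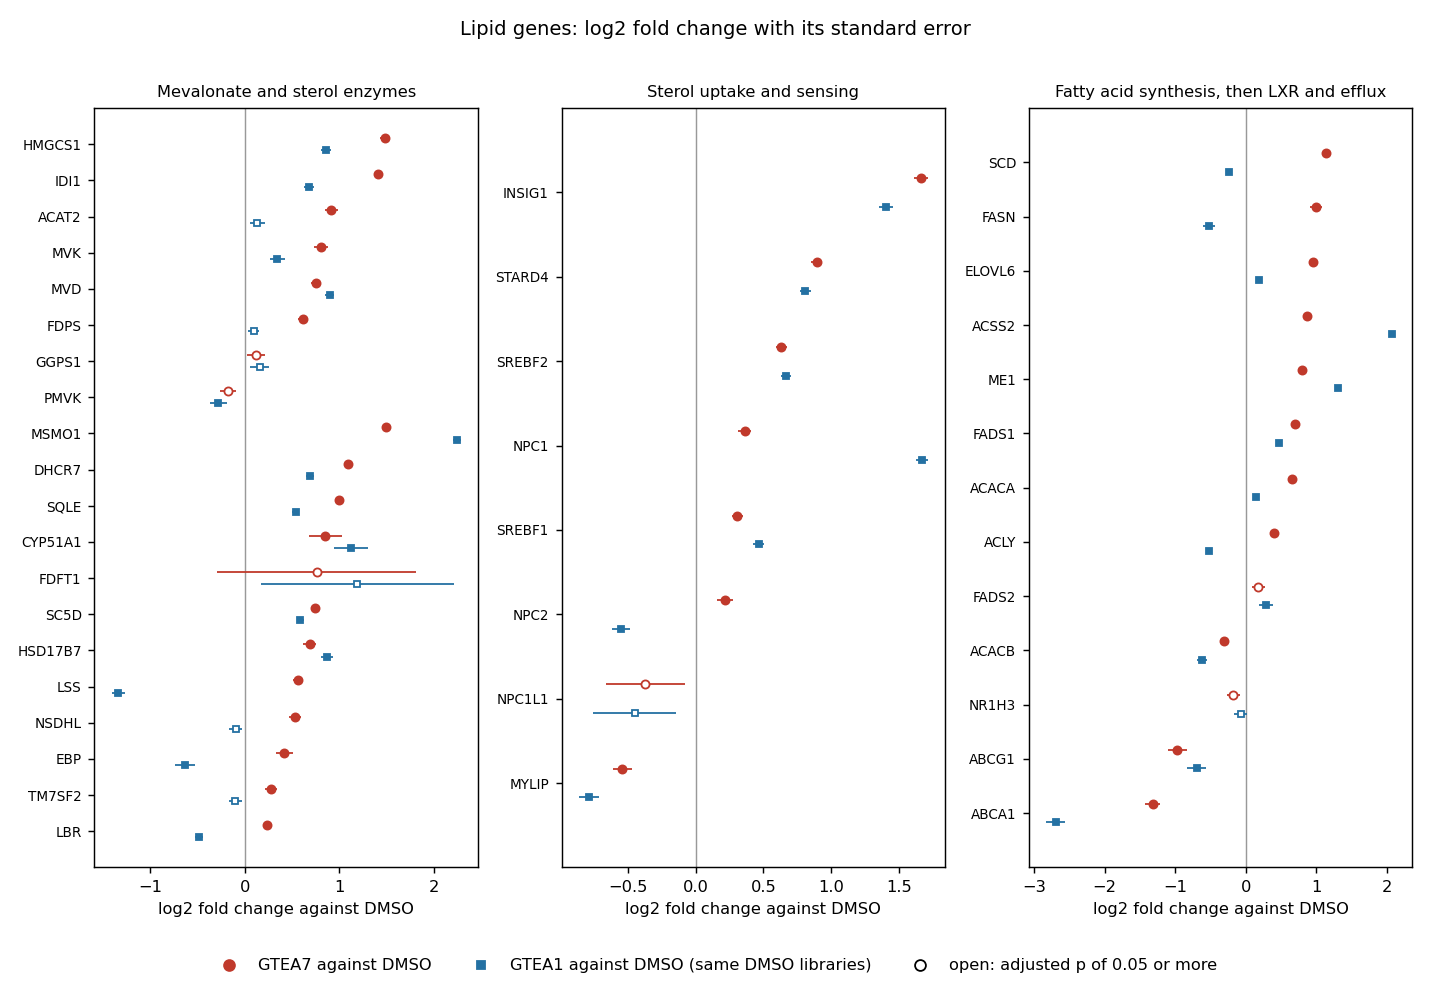
Log2 fold change against DMSO (x axis) of the lipid genes named in the text (y axis), with its standard error, for GTEA7 (circles) and GTEA1 (squares); both use the same 3 DMSO libraries. Over the full list of 34 cholesterol genes, 27 rose with GTEA7, and LSS and EBP lie on opposite sides of 0 for the extracts.

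Fatty acid synthesis genes rose alongside. Of 19 tested members 15 rose (78.9%, against 12% of all genes) and 1 fell (5.26%, against 10.4%), and the list's median was 0.43. SCD (ENSG00000099194), the stearoyl-CoA desaturase that makes oleate, stood at 1511, 1555 and 1533 CPM in DMSO and 3339, 3332, 3384 and 3448 CPM in GTEA7. Every GTEA7 library was more than 2-fold above every DMSO library (1.14 ± 0.04, adjusted p = 8.47e-29). Its pseudogene SCDP1 rose too (1.19 ± 0.30), at 1.83 ± 0.51 CPM with GTEA7. FASN (ENSG00000169710), the fatty acid synthase, stood at 552, 598 and 586 CPM in DMSO and 1220, 1152, 1103 and 1155 CPM in GTEA7 (1.00 ± 0.08, adjusted p = 2.65e-05). ELOVL6 (0.96 ± 0.04), which elongates the product, and the suppliers of acetyl-CoA and NADPH, ACSS2 (0.87 ± 0.04), ACLY (0.40 ± 0.03) and ME1 (0.80 ± 0.04), rose as well. FADS1, a desaturase of polyunsaturated fatty acids, rose by 0.70, and its neighbour in function FADS2 was at 0.18 ± 0.09 (adjusted p = 0.183). The carboxylases split: ACACA, the cytosolic form that feeds synthesis, rose (0.65 ± 0.04), and ACACB, the mitochondrial form that restrains fatty acid oxidation, fell (-0.30 ± 0.07). LIPG (ENSG00000101670), a secreted phospholipase that is not on this list, stood at 7.81, 7.39 and 7.32 CPM in DMSO and 23.6, 27.3, 27.4 and 26.9 CPM in GTEA7. It had the largest rise of any gene with a symbol named by the rule (3.5-fold, 1.80 ± 0.08, adjusted p = 4.77e-24). PLIN2, which coats lipid droplets, rose by 0.39 on the log2 scale.

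Sterol exporters among the LXR targets fell. ABCA1 (ENSG00000165029), the exporter that loads cholesterol onto lipoproteins, stood at 11.8, 12.4 and 11.3 CPM in DMSO and 4.43, 4.04, 5.19 and 5.52 CPM in GTEA7. The groups were apart by more than 5 CPM (0.402-fold, -1.32 ± 0.11, adjusted p = 4.08e-14). ABCG1, its partner exporter, stood at 5.93, 6.64 and 6.07 CPM in DMSO and 2.99, 3.63, 3.42 and 2.56 CPM in GTEA7 (-0.97 ± 0.14, adjusted p = 3.65e-07). Of 10 tested LXR and efflux genes 3 fell (30%, against 10.4% of all genes), 0 rose and 7 did not pass, and the list's median was -0.07. With GC trends removed 2 other members rose. NR1H3, which encodes LXR alpha, was at -0.17 ± 0.09 (adjusted p = 0.175).

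The extracts differed in lipid genes by direct test. Of the 34 cholesterol genes, 21 were higher with GTEA7 than with GTEA1 and 6 lower; among 19 fatty acid genes these counts were 13 and 4, against 36.2% and 36.4% of all genes. LSS, lanosterol synthase, was at 30.4 ± 1.7 CPM in DMSO, 45.1 ± 1.8 CPM with GTEA7 and 12 ± 0.68 CPM with GTEA1 (GTEA7 minus GTEA1 1.90 ± 0.06, adjusted p = 6.8e-32). SCD was at 3376 ± 53.3 CPM with GTEA7 and 1300 ± 83.5 CPM with GTEA1 (1.38 ± 0.04, adjusted p = 5.68e-36). FASN (1.52 ± 0.08) and EBP (1.05 ± 0.09) differed in the same direction. MSMO1 (-0.75 ± 0.03), ACSS2 (-1.21 ± 0.04) and NPC1 (-1.31 ± 0.04) were lower with GTEA7 than with GTEA1. For SREBF2 the difference was -0.03 ± 0.03 (adjusted p = 0.387).

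**Figure D2:**
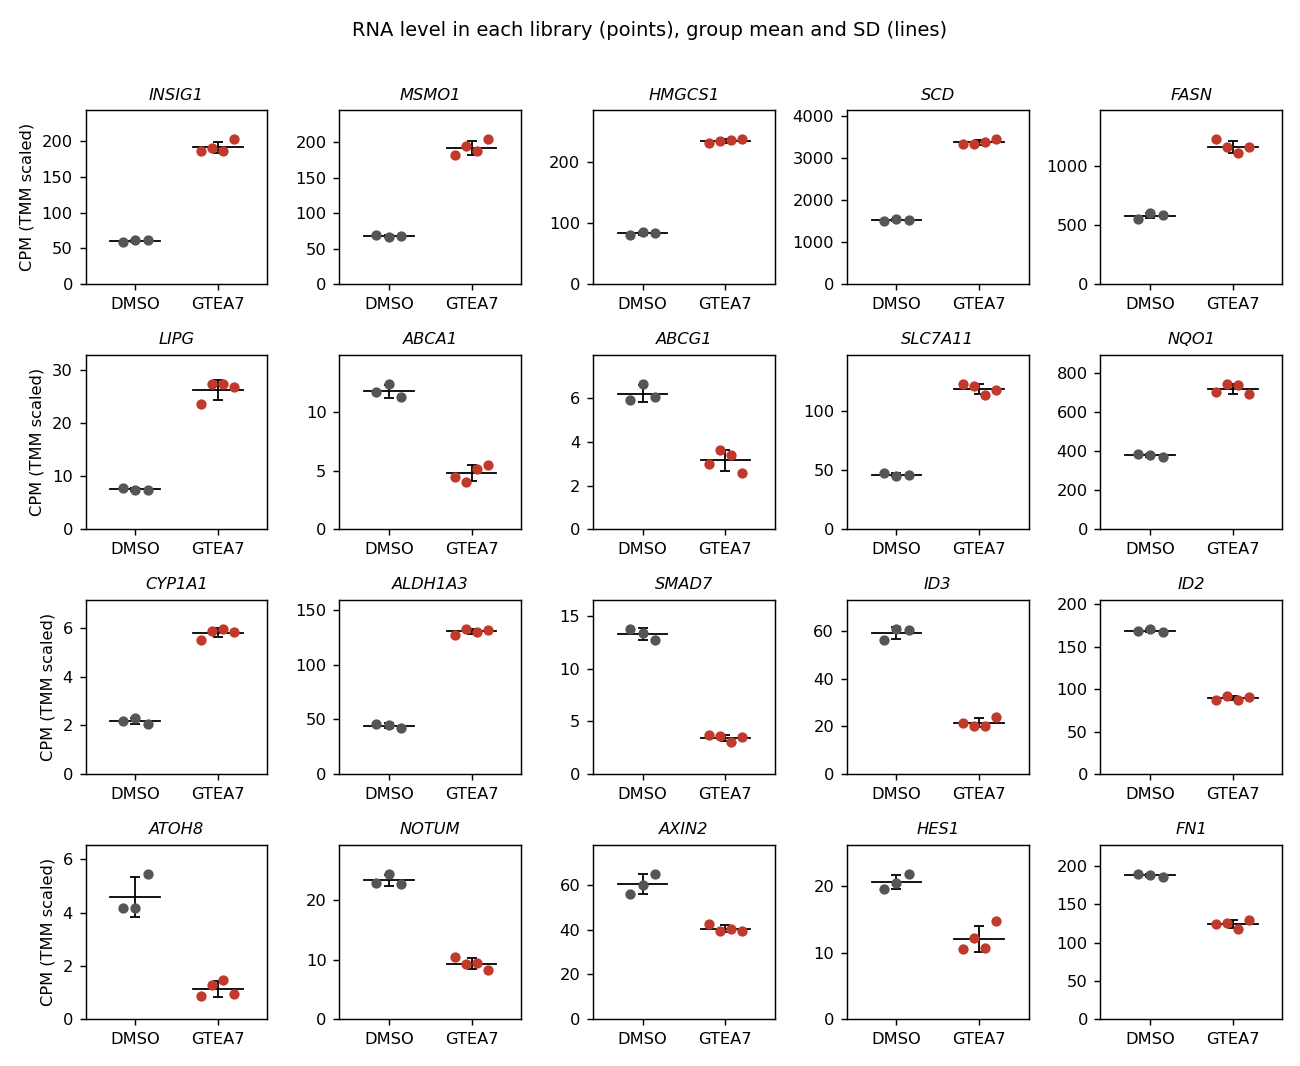
CPM (y axis, from 0, scaled per gene) of 20 named genes in each library (points) of DMSO (n = 3) and GTEA7 (n = 4), with the mean and SD of each group as lines. In none of these genes do the groups overlap, which the naming rule required of some of them, INSIG1 included. Over all tested genes 30.5% are without overlap. INSIG1 lies near 60 CPM in DMSO and near 190 CPM in GTEA7.

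Targets of NRF2, the factor that answers oxidants and electrophiles, rose for the most part. Of 29 tested members 18 rose (62.1%, against 12% of all genes) and 1 fell (3.45%, against 10.4%). The list's median was 0.43, and 21 rose with GC trends removed. SLC7A11 (ENSG00000151012), which imports cystine for glutathione synthesis and is also a target of ATF4, stood at 47.6, 45.5 and 45.5 CPM in DMSO and 123, 121, 114 and 118 CPM in GTEA7 (2.57-fold, 1.36 ± 0.05, adjusted p = 8.47e-29). NQO1 (ENSG00000181019), a quinone reductase, stood at 383, 380.2 and 371 CPM in DMSO and 702, 742, 738 and 689.7 CPM in GTEA7 (0.92 ± 0.04, adjusted p = 2.99e-25). In these genes all 4 GTEA7 libraries were above all DMSO libraries, which the naming rule required of SLC7A11. Subunits of the glutathione-making ligase rose, GCLM by 0.86 and GCLC by 0.54, as did the thioredoxin reductase TXNRD1 (0.66 ± 0.04). Ferritin genes FTL (0.91 ± 0.04) and FTH1 (0.64 ± 0.04) rose, but so did their pseudogenes FTLP3 (1.18 ± 0.14) and FTH1P8 (1.15 ± 0.21), so the division of reads is uncertain. HMOX1, the inducible heme oxygenase, stood at 15.1, 14.4 and 17 CPM in DMSO and 22.7, 23.7, 24 and 21.4 CPM in GTEA7. It rose 1.49-fold (0.58 ± 0.07, adjusted p = 3.01e-09), where the median fold among all genes that rose was 1.16. ABCC2, an export pump, was the member that fell (-0.38 ± 0.03), whereas its relative ABCC3 rose (0.38 ± 0.04). Against GTEA1, 4 members were higher with GTEA7 and 23 lower, against 36.2% and 36.4% of all genes. HMOX1 reached 209 ± 9.3 CPM with GTEA1 (-3.19 ± 0.05, adjusted p = 3.79e-47).

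Some targets of the aryl hydrocarbon receptor, a sensor of planar aromatic compounds, also rose. CYP1A1, its classic target, stood at 2.17, 2.32 and 2.07 CPM in DMSO and 5.53, 5.89, 5.96 and 5.85 CPM in GTEA7 (2.64-fold, 1.40 ± 0.14, adjusted p = 3.76e-11). The groups were apart, which the naming rule required, and the levels were low. TIPARP, which limits the receptor, stood at 61.2, 57.5 and 58.9 CPM in DMSO and 91.8, 93.1, 94.1 and 97.2 CPM in GTEA7 (0.67 ± 0.05), and CYP1B1 rose from 3.89 ± 0.19 to 6.34 ± 0.43 CPM (0.71 ± 0.13). Of 8 tested genes of this group 5 rose (62.5%, against 12% of all genes), NQO1 and the receptor's repressor AHRR included. The 2 that fell (25%, against 10.4%) were the receptor gene AHR (-0.39 ± 0.05) and its partner ARNT (-0.21 ± 0.04). Of 5 further tested genes that handle foreign compounds 0 rose and 0 fell. AHRR was near 1 CPM (0.77 ± 0.29) and lost its call without DMSO replicate 1 or 3 or GTEA7 replicate 1, 3 or 4 (adjusted p from 0.0641 to 0.211). For CYP1A1 the difference between the extracts did not pass (-0.23 ± 0.11, adjusted p = 0.0518), while TIPARP was lower with GTEA7 than with GTEA1 (-1.36 ± 0.04).

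The amino acid and endoplasmic reticulum stress programs moved by small steps. On a list of 40 genes that answer amino acid shortage, many through ATF4, 17 rose (42.5%, against 12% of all genes). Another 4 fell (10%, against 10.4%), and the list's median was 0.10. ATF4 itself stood at 256, 261 and 273 CPM in DMSO and 299, 298, 299 and 277 CPM in GTEA7 (0.16 ± 0.04), and the pseudokinase TRIB3 at 14.1 ± 0.28 and 17.8 ± 0.92 CPM (0.34 ± 0.07). DDIT3, which encodes the stress factor CHOP, stood at 3.17, 3.67 and 3.1 CPM in DMSO and 3.51, 2.97, 2.77 and 2.5 CPM in GTEA7. These overlapped (-0.18 ± 0.18, adjusted p = 0.548), and with GTEA1 the level was 136 ± 13.3 CPM (-5.52 ± 0.08, adjusted p = 3.05e-30). Members that fell were the growth restraining genes DDIT4 (-0.73 ± 0.10) and SESN2 (-0.66 ± 0.13), the hormone gene STC2 (-0.18 ± 0.04) and the serine synthesis enzyme PHGDH (-0.13 ± 0.05). PHGDH lost its call without DMSO replicate 2 or 3 or GTEA7 replicate 1, 3 or 4 (adjusted p from 0.0774 to 0.161). By direct test 36 of the 40 were lower with GTEA7 than with GTEA1, against 36.4% of all genes. Of 25 unfolded protein response genes 12 rose (48%, against 12% of all genes) and 0 fell. The list's median was 0.12, and with library size only 7 rose and 2 fell. Examples were the splicing-controlled factor XBP1 (0.22 ± 0.05) and the sensor EIF2AK3 (0.26 ± 0.06). Of 17 heat shock genes 8 rose (47.1%, against 12%) and 0 fell. HSPD1 (0.26 ± 0.04) and HSPA8 (0.24 ± 0.04) were among those that rose, and with library size only 5 rose and 1 fell.

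**Figure D3:**
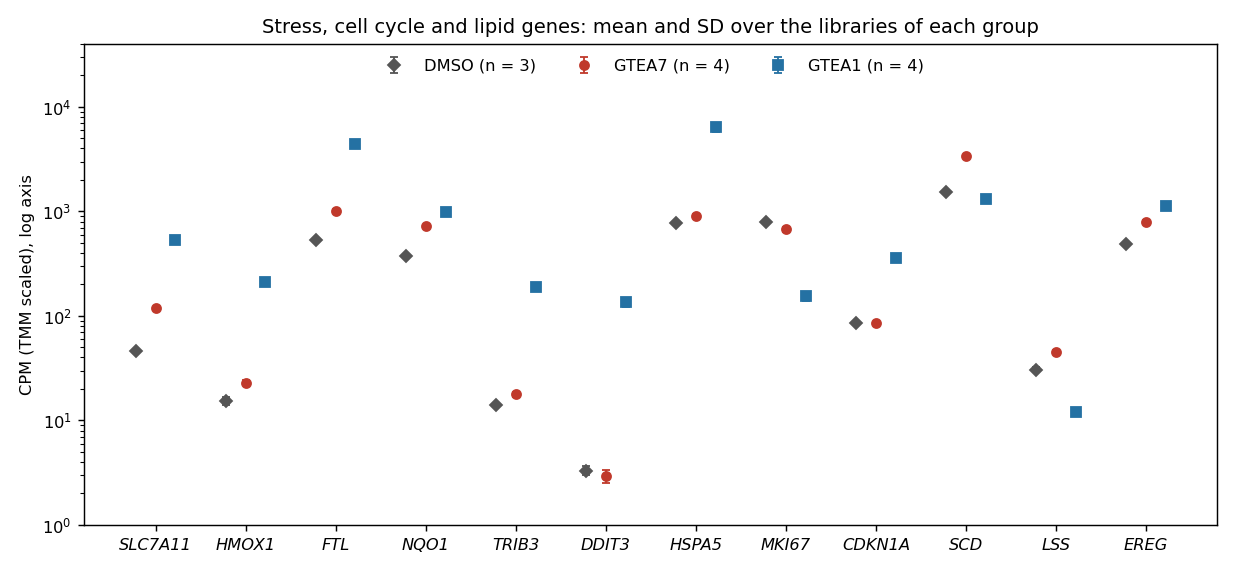
Mean CPM (y axis, log scale) with SD of 12 genes in DMSO, GTEA7 and GTEA1. DDIT3 lies near 3 CPM in DMSO and in GTEA7 and near 136 CPM in GTEA1, whereas SCD is highest in GTEA7.

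Readouts of BMP signalling fell with GTEA7. Of 15 tested BMP output and ligand genes 11 fell and 0 rose (73.3% fell, against 10.4% of all genes), with a median of -0.79. One promoter of the group holds the palindrome GTCTAGAC, known to bind Smad proteins: it was found in SMAD6 alone among 32 listed genes with a window, and in 48 of 27305 windows (0.176%), on both strands. GGCGCC, a GC-rich element known from BMP targets, was also searched and was in 11 of the 32 windows (34.4%), against 25.5% of tested genes and 37% of the cholesterol genes. It is shown because SMAD6 is a direct inhibitor within the pathway, with the palindrome, at -12 to -5 from the start, in capitals.
SMAD6 (chr15:66701986-66702235, + strand): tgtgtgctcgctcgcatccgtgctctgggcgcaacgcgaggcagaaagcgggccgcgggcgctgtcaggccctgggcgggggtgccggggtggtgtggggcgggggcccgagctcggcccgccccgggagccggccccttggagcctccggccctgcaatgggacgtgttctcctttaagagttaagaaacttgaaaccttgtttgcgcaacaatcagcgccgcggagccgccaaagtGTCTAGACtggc

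The ID genes encode proteins that block differentiation factors and are direct BMP targets. ID3 (ENSG00000117318) stood at 56.3, 60.7 and 60.4 CPM in DMSO and 21.4, 20.3, 20.3 and 24.1 CPM in GTEA7. The groups were widely separated (0.363-fold, -1.46 ± 0.06, adjusted p = 1.39e-26). ID2 (ENSG00000115738) stood at 168, 171 and 167 CPM in DMSO and 87, 91.8, 87.2 and 90.9 CPM in GTEA7 (-0.92 ± 0.04, adjusted p = 3.72e-23), and ID1 at 219, 228 and 220.2 CPM in DMSO and 168, 171, 163 and 172 CPM in GTEA7 (-0.40 ± 0.03). The inhibitory SMADs fell too. SMAD7 (ENSG00000101665), which blocks both BMP and TGF-beta receptors, stood at 13.7, 13.4 and 12.7 CPM in DMSO and 3.69, 3.58, 3.01 and 3.48 CPM in GTEA7 (0.259-fold, -1.95 ± 0.11, adjusted p = 2.7e-20), and all GTEA7 libraries were below 4 CPM. SMAD6, the inhibitor more specific to BMP, fell from 12.3 ± 0.88 to 7.56 ± 0.66 CPM (-0.70 ± 0.10), and BAMBI, a decoy receptor, from 13.2 ± 1.6 to 7.69 ± 0.29 CPM (-0.79 ± 0.10). SMAD9, a receptor-activated SMAD of the BMP branch, fell by 0.61. Homeobox and helix-loop-helix targets were lower: ATOH8 (ENSG00000168874) stood at 4.17, 4.16 and 5.45 CPM in DMSO and 0.864, 1.28, 1.47 and 0.92 CPM in GTEA7 (-1.99 ± 0.20), and DLX2 at 5.29, 6.86 and 5.8 CPM in DMSO and 1.44, 1.95, 1.53 and 1.91 CPM in GTEA7 (-1.81 ± 0.16). MSX2 (-0.92 ± 0.06) and MSX1 (-0.43 ± 0.06) fell as well. The ligand gene BMP4 did not pass: it stood at 241, 236 and 235 CPM in DMSO and 253, 260.1, 260.3 and 261 CPM in GTEA7, without overlap (0.12 ± 0.06, adjusted p = 0.188). It passed as higher with no low-count filter and in a fit of these 7 libraries alone (adjusted p = 0.00362 and 0.00107).

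The TGF-beta branch was mixed. Of 17 tested members 3 rose (17.6%, against 12% of all genes) and 4 fell (23.5%, against 10.4%), and the list's median was -0.06. SMAD3, the transducer, stood at 80.9, 78.4 and 79.8 CPM in DMSO and 115, 114, 113 and 118 CPM in GTEA7 (0.53 ± 0.04, adjusted p = 3.59e-15). SMAD2 rose as well (0.11 ± 0.04), but not without DMSO replicate 2 or 3 or GTEA7 replicate 2 (adjusted p from 0.062 to 0.146). The feedback genes PMEPA1 (-0.68 ± 0.17) and SKIL (-0.34 ± 0.06) fell. The latent TGF-beta binding protein genes LTBP1 and LTBP3 fell by 0.21 and 0.15, but LTBP1 not without DMSO replicate 1 or 3 or GTEA7 replicate 1, 2 or 3 (adjusted p from 0.0551 to 0.0931), and LTBP3 not with GC trends removed (adjusted p = 0.601). Against GTEA1, 11 of the 15 BMP genes were higher with GTEA7 and 2 lower, against 36.2% and 36.4% of all genes. ID3 was at 7.83 ± 0.68 CPM with GTEA1 and BMP4 at 37.2 ± 5.9 CPM (GTEA7 minus GTEA1 1.46 ± 0.08 and 2.80 ± 0.07). SMAD7 did not differ past the threshold (0.15 ± 0.14, adjusted p = 0.327), and ID1 was lower with GTEA7 (-0.58 ± 0.03).

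Many Wnt genes fell, to a smaller extent. Of 39 tested members 19 fell (48.7%, against 10.4% of all genes) and 2 rose (5.13%, against 12%). The list's median was -0.17, and with GC trends removed 16 fell and 1 rose. NOTUM (ENSG00000185269), a secreted enzyme that inactivates Wnt ligands, stood at 22.9, 24.4 and 22.7 CPM in DMSO and 10.4, 9.21, 9.38 and 8.28 CPM in GTEA7. The groups were far apart (0.4-fold, -1.32 ± 0.08, adjusted p = 4.61e-18). AXIN2 (ENSG00000168646), the general feedback inhibitor, stood at 55.9, 60.1 and 64.9 CPM in DMSO and 42.5, 39.5, 40 and 39.2 CPM in GTEA7 (-0.58 ± 0.05, adjusted p = 2.69e-12). The target factor SP5 fell from 2.48 ± 0.22 to 1.22 ± 0.22 CPM (-1.04 ± 0.24). Further feedback inhibitors were lower: DKK1 (-0.42 ± 0.04), NKD1 (-0.32 ± 0.05) and the receptor ligase RNF43 (-0.27 ± 0.05). The related ligase ZNRF3 fell too (-0.18 ± 0.05), but not with GC trends removed (adjusted p = 0.202). The co-receptor LRP6 (-0.25 ± 0.06) and the factor TCF7L1 (-0.39 ± 0.07) fell. Members that rose were MYC, a transcription factor of growth genes, at 155, 154 and 153 CPM in DMSO and 195, 200.5, 198 and 196 CPM in GTEA7 (0.36 ± 0.03, adjusted p = 1.05e-11), and CD44. By direct test 25 of the 39 were higher with GTEA7 than with GTEA1 and 4 lower, against 36.2% and 36.4% of all genes. Among the higher was AXIN2, at 5.88 ± 0.97 CPM with GTEA1 (2.79 ± 0.08, adjusted p = 1.65e-34).

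Some Notch genes fell. Of 19 tested members 7 fell (36.8%, against 10.4% of all genes) and 1 rose (5.26%, against 12%), and the list's median was -0.13. HES1, the main target gene, stood at 19.7, 20.5 and 21.9 CPM in DMSO and 10.5, 12.3, 10.7 and 14.8 CPM in GTEA7 (-0.78 ± 0.11, adjusted p = 6.84e-05), with GTEA7 replicate 4 the highest of its group but below DMSO. The ligand JAG1 stood at 185, 181 and 187 CPM in DMSO and 133, 133, 137 and 141 CPM in GTEA7 (-0.44 ± 0.04, adjusted p = 2.53e-14). The receptors NOTCH1 (-0.31 ± 0.05) and NOTCH3 (-0.30 ± 0.04) fell. RBPJ, the DNA-binding partner of Notch, was the member that rose (0.10 ± 0.04), but not without DMSO replicate 2 or 3 or GTEA7 replicate 1, 2 or 4 (adjusted p from 0.0649 to 0.212). HES1 was lower with GTEA7 than with GTEA1, where it stood at 26.6 ± 3.9 CPM (-1.15 ± 0.10, adjusted p = 1.18e-08).

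**Figure D4:**
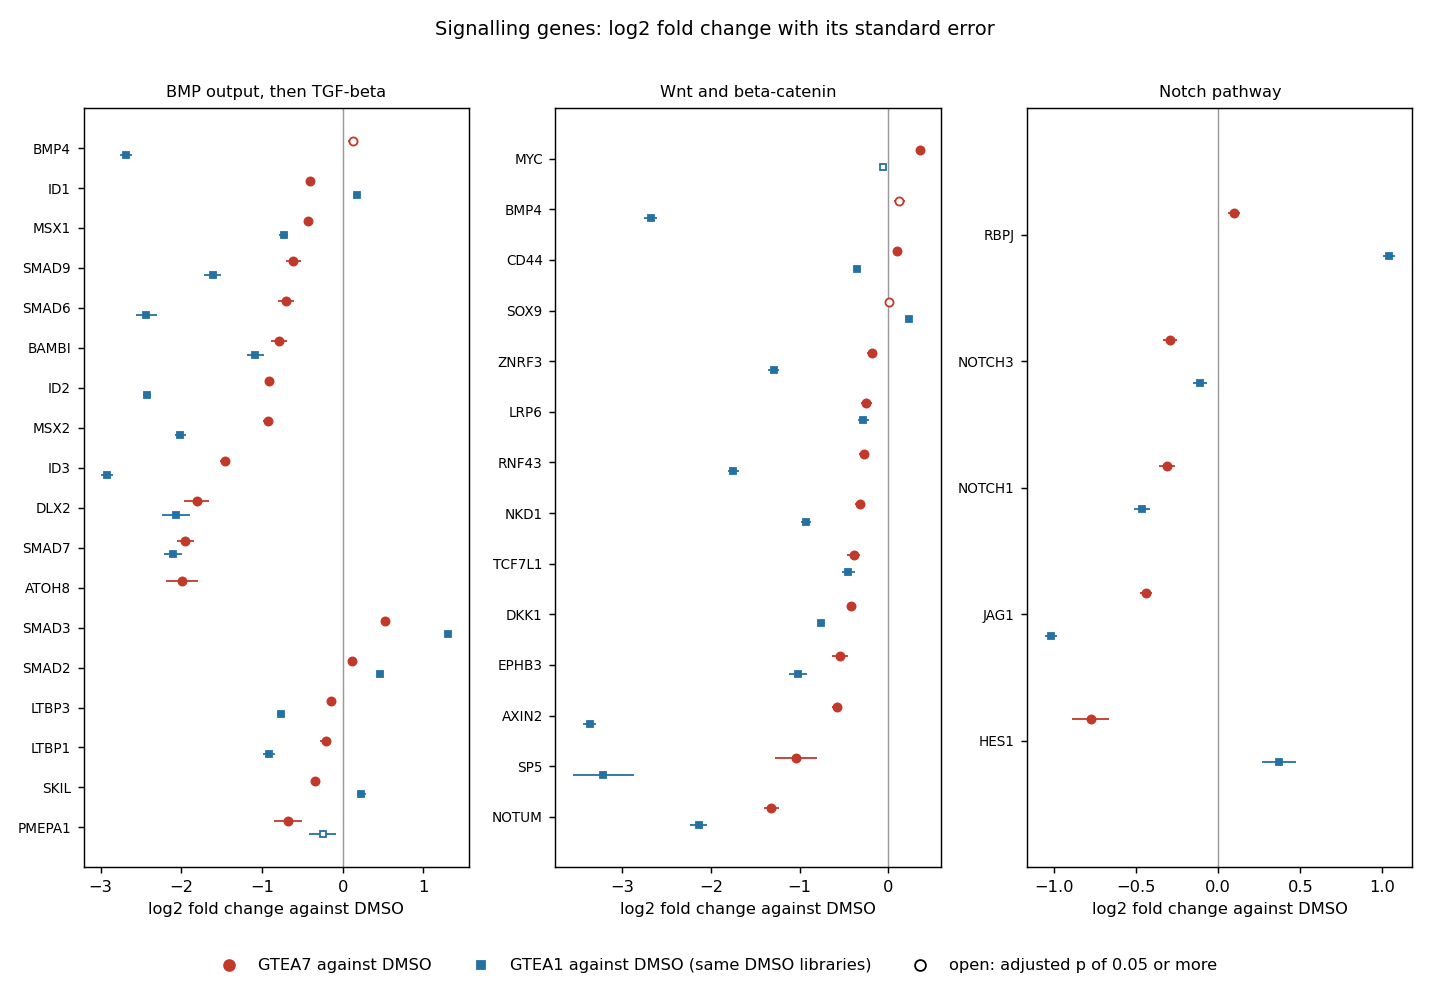
Log2 fold change against DMSO (x axis) of the BMP, TGF-beta, Wnt and Notch genes named in the text (y axis), with its standard error, for GTEA7 (circles) and GTEA1 (squares), which share the DMSO libraries. GTEA1 is not drawn for ATOH8, which had under 0.1 CPM there. Over the full lists, 11 of 15 BMP genes, 19 of 39 Wnt genes and 7 of 19 Notch genes fell with GTEA7.

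Markers of colon cancer stem cells did not move as a block. Of 22 tested members 6 rose (27.3%, against 12% of all genes) and 5 fell (22.7%, against 10.4%), and the list's median was 0.00. The count that rose was 3 without DMSO replicate 2, 3 with library size only and 4 without DMSO replicate 3. ALDH1A3 (ENSG00000184254), which encodes an aldehyde dehydrogenase that makes retinoic acid and adds to the ALDH activity used to sort stem-like cells, stood at 46, 44.7 and 42 CPM in DMSO and 127, 132, 130.1 and 132 CPM in GTEA7. Every GTEA7 library was more than 2.5-fold above every DMSO library (2.94-fold, 1.56 ± 0.04, adjusted p = 9.65e-33). EPCAM stood at 240.1, 230.3 and 230.5 CPM in DMSO and 264, 281, 286 and 281 CPM in GTEA7 (0.25 ± 0.04), and PROM1, which encodes CD133, at 38.9, 40.5 and 39.8 CPM in DMSO and 44.3, 45.1, 45.4 and 45.3 CPM in GTEA7 (0.18 ± 0.05). These changes were small beside that of ALDH1A3. CD44 was at 1008 ± 22.9 and 1081 ± 11.1 CPM (0.10 ± 0.03), and its call was lost without DMSO replicate 2 or 3 (adjusted p = 0.124 and 0.0804). ALDH1B1 (0.15 ± 0.04) lost its call without DMSO replicate 2 (adjusted p = 0.096), and the RNA-binding protein gene MSI2 (0.09 ± 0.03) without DMSO replicate 2 or 3 or GTEA7 replicate 1, 2 or 3 (adjusted p from 0.0538 to 0.228). With library size only, these 3 did not pass, nor did CD44 and MSI2 with GC trends removed. Members that fell were the receptor EPHB3 (-0.55 ± 0.09), the RNA-binding protein gene MEX3A (-0.38 ± 0.06), RNF43, ZNRF3 and LRIG1. LRIG1 (-0.40 ± 0.13) lost its call without DMSO replicate 1 or GTEA7 replicate 3 (adjusted p = 0.131 and 0.087). SOX9 was at 0.01 ± 0.04 (adjusted p = 0.881). LGR5 had 7 counts over the DMSO group and 14 over the GTEA7 group, ALDH1A1 28 and 27, NANOG 0 and 3 and POU5F1 2 and 0, and none of these was tested.

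Among 10 tested pluripotency factors, HMGA1 and MYC rose (20%, against 12% of all genes) and 0 fell. HMGA1, a chromatin protein, stood at 722, 736 and 763 CPM in DMSO and 1011, 1002, 979 and 1027 CPM in GTEA7 (0.44 ± 0.04, adjusted p = 2.6e-14). SOX2 stood at 0.587, 0.378 and 0.69 CPM in DMSO and 0.288, 0.614, 0.884 and 0.657 CPM in GTEA7, too low to tell a change (0.17 ± 0.38, adjusted p = 0.81). KLF4 was at -0.13 ± 0.07 (adjusted p = 0.224).

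Several genes of the mesenchymal state and of matrix fell, while the transcription factors ZEB1 and SNAI2 did not pass. Of 19 tested EMT and mesenchymal genes 8 fell (42.1%, against 10.4% of all genes), 0 rose and 11 did not pass, and the list's median was -0.31; with GC trends removed 6 fell. FN1 (ENSG00000115414), fibronectin, stood at 190, 188 and 186 CPM in DMSO and 124, 126, 118 and 129 CPM in GTEA7. Its groups did not overlap (0.66-fold, -0.60 ± 0.04, adjusted p = 2.69e-17). The collagens COL6A1 (-0.33 ± 0.04), COL6A2 (-0.31 ± 0.04) and COL1A1 (-0.39 ± 0.06) fell, as did the fibronectin receptor subunit ITGA5 (-0.24 ± 0.05). The receptor kinase AXL fell (-0.19 ± 0.05), but not with GC trends removed (adjusted p = 0.113). LOXL2, a collagen cross-linking enzyme, fell (-0.18 ± 0.05), but not without GTEA7 replicate 3 (adjusted p = 0.0601). Vimentin, VIM, was near 2 CPM in DMSO and fell (-0.61 ± 0.21), but not without DMSO replicate 1 or GTEA7 replicate 3 (adjusted p = 0.215 and 0.0932). ZEB1 (-0.12 ± 0.11, adjusted p = 0.483) and SNAI2 (-0.21 ± 0.32, adjusted p = 0.703) did not pass, nor did the epithelial cadherin CDH1, at 148, 144 and 146 CPM in DMSO and 142, 141, 139 and 146 CPM in GTEA7 (-0.04 ± 0.04, adjusted p = 0.465). COL1A1 is also the bulk of the fibroblast marker sum given above, whose part in this result was not tested.

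Among migration, matrix and protease genes 18 of 63 fell (28.6%, against 10.4% of all genes) and 7 rose (11.1%, against 12%). The list's median was -0.07. Basement membrane genes and their receptors had most of the smallest adjusted p-values. ITGB4, the integrin of hemidesmosomes, stood at 296, 284 and 287 CPM in DMSO and 208, 198, 190.1 and 208 CPM in GTEA7 (-0.52 ± 0.04, adjusted p = 9.68e-17). The matrix proteoglycan gene AGRN stood at 111, 104 and 108 CPM in DMSO and 78, 73.5, 72.8 and 77.8 CPM in GTEA7 (-0.51 ± 0.04), and laminin chains LAMB2 (-0.44 ± 0.04), LAMB3 (-0.44 ± 0.06) and LAMA5 (-0.30 ± 0.04) were lower. CXCR4 (ENSG00000121966) stood at 7.17, 7.34 and 7.38 CPM in DMSO and 2.94, 3.38, 3.3 and 3.88 CPM in GTEA7. Its levels were low but apart (0.461-fold, -1.12 ± 0.13, adjusted p = 1.03e-09). The surface metalloproteinase MMP14 fell by 0.28, and MMP7 was under 1 CPM (-0.35 ± 0.32, adjusted p = 0.483). Members that rose included the protease CTSL (0.33 ± 0.05), the integrin ITGB5 (0.18 ± 0.04) and the laminin LAMB1 (0.16 ± 0.04). With library size only 4 rose and 23 fell, and without DMSO replicate 3 also 4 rose. LAMB3 and ITGB4 were higher with GTEA1: LAMB3 was at 37.8 ± 2.4 CPM in DMSO, 27.7 ± 1 CPM with GTEA7 and 239 ± 16.8 CPM with GTEA1 (-3.11 ± 0.05, adjusted p = 3.6e-41), and ITGB4 at 523 ± 14.1 CPM with GTEA1 (-1.38 ± 0.03). FN1 was lower with GTEA1 than with GTEA7 (27.8 ± 2.7 CPM, 2.16 ± 0.05).

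Genes of growth factor signalling moved in both directions. Of 14 tested EGFR family genes 5 rose (35.7%, against 12% of all genes) and 2 fell (14.3%, against 10.4%). Without DMSO replicate 1 or 3 the count that rose was 3. The EGFR ligand EREG (ENSG00000124882) stood at 513, 484 and 471 CPM in DMSO and 835, 796, 796 and 774 CPM in GTEA7 (1.64-fold, 0.71 ± 0.04, adjusted p = 5.58e-21), and AREG at 203, 179 and 188 CPM in DMSO and 238, 248, 250.5 and 261 CPM in GTEA7 (0.39 ± 0.04). The groups did not overlap in either. The ligand genes EGF (0.94 ± 0.26), BTC (0.36 ± 0.11) and NRG4 (0.54 ± 0.20) rose too, but EGF not without DMSO replicate 1 (adjusted p = 0.0547), BTC not without DMSO replicate 3 (adjusted p = 0.161) and NRG4 not without any 1 of the 3 DMSO libraries or GTEA7 replicate 1 or 3 (adjusted p from 0.0507 to 0.158). The receptor ERBB2 fell (-0.19 ± 0.04), but not with GC trends removed (adjusted p = 0.0563), and LRIG1, which restrains the receptors, is described above. Feedback inhibitors of ERK signalling split. DUSP6, an ERK phosphatase, stood at 277, 262 and 261 CPM in DMSO and 187, 199.5, 192 and 201 CPM in GTEA7 (-0.45 ± 0.04, adjusted p = 2.08e-14), SPRY4 fell by 0.49 and SPRED2 by 0.20, whereas the phosphatase genes DUSP4 (0.18 ± 0.05) and DUSP5 (0.19 ± 0.06) rose. DUSP5 lost its call without DMSO replicate 1 (adjusted p = 0.076). EPHA2, an ephrin receptor, fell by 0.50. AP-1 genes moved in both directions, with FOSL2 (-0.75 ± 0.05) and JUNB (-0.48 ± 0.06) lower and JUND (0.55 ± 0.04) and FOSL1 (0.35 ± 0.07) higher. Over the whole ERK output and AP-1 list 8 of 31 rose (25.8%, against 12% of all genes) and 9 fell (29%, against 10.4%). The list's median was -0.06. Between the extracts, DUSP6 was lower with GTEA7 than with GTEA1 (-0.72 ± 0.03, adjusted p = 5.3e-25), as were SPRY4 (-1.28 ± 0.03) and EPHA2 (-2.56 ± 0.04). Of 25 genes tied to YAP and TAZ, 8 fell (32%, against 10.4% of all genes) and 4 rose (16%, against 12%). With GC trends removed 4 fell and 3 rose. AMOTL2, a feedback target, stood at 21.7, 22.2 and 21.1 CPM in DMSO and 11.9, 12.6, 13 and 11.5 CPM in GTEA7 (-0.82 ± 0.07, adjusted p = 3.85e-13), and PTPN14 fell by 0.43. Members that rose were the ectoenzyme NT5E (0.60 ± 0.05), WWTR1, which encodes TAZ (0.26 ± 0.04), MYOF (0.22 ± 0.03) and TEAD1 (0.14 ± 0.03). TEAD1 did not pass with GC trends removed (adjusted p = 0.0531).

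Few DNA replication genes changed, while more mitosis genes fell, by small steps. Of 40 DNA replication and G1/S genes 2 rose (5%, against 12% of all genes) and 3 fell (7.5%, against 10.4%). The list's median was 0.00. Those that rose were RFC3 (0.23 ± 0.05) and SLBP (0.12 ± 0.04), and those that fell included the polymerase genes POLE (-0.22 ± 0.04) and POLD1 (-0.17 ± 0.06). SLBP lost its call without any 1 of the DMSO libraries or GTEA7 replicates 1 to 3 (adjusted p from 0.0616 to 0.0843), and POLD1 without DMSO replicate 3 (adjusted p = 0.24) or GTEA7 replicate 2 (adjusted p = 0.0743). Of 38 G2/M and mitosis genes 13 fell (34.2%, against 10.4% of all genes) and 0 rose, and the list's median was -0.10. This count was 6 without DMSO replicate 2 or GTEA7 replicate 4, 8 without DMSO replicate 3, 5 with DESeq2's test and 20 with library size only. MKI67, the proliferation marker, stood at 784, 788 and 792 CPM in DMSO and 720.3, 665, 679 and 635 CPM in GTEA7, lower in every library (-0.22 ± 0.06, adjusted p = 0.00981). The mitotic kinesin KIF20A fell by 0.28 and the topoisomerase TOP2A by 0.22. CDKN1A, which encodes p21, stood at 82.9, 89.3 and 85.7 CPM in DMSO and 87.7, 87.7, 84.2 and 82.6 CPM in GTEA7, with overlap (-0.01 ± 0.04, adjusted p = 0.927). With GTEA1 MKI67 stood at 154 ± 15 CPM and CDKN1A at 357 ± 13.3 CPM, and both differed from GTEA7 (GTEA7 minus GTEA1 2.13 ± 0.06 and -2.06 ± 0.04, adjusted p = 1.03e-14 and 1.16e-43). In the direct test, 39 of 40 replication genes and 37 of 38 mitosis genes were higher with GTEA7 than with GTEA1, against 36.2% of all genes.

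Genes of protein production and turnover rose by small steps. Of 32 ribosome biogenesis factors 24 rose (75%, against 12% of all genes) and 0 fell, and the list's median was 0.19. The RNA helicase DDX21 stood at 338, 326 and 326 CPM in DMSO and 406, 416, 429 and 396 CPM in GTEA7 (0.32 ± 0.03, adjusted p = 2.57e-10), and NIP7 (0.33 ± 0.05) and PNO1 (0.35 ± 0.05), which act in ribosome maturation, rose as well. Of 31 proteasome subunits 20 rose (64.5%, against 12%) and 0 fell, for instance PSMA5 (0.28 ± 0.04) and PSMD14 (0.23 ± 0.04). The list's median was 0.17. Library size only left 17 ribosome biogenesis and 16 proteasome genes higher, and GC trends removed 25 and 21. Of 73 mitochondrial ribosomal protein genes 24 rose (32.9%, against 12%) and 2 fell (2.74%, against 10.4%), and the list's median was 0.11. The count that rose was 14 without DMSO replicate 1 and 13 with library size only. Those that fell, MRPL46 (-0.67 ± 0.20) and MRPL2 (-0.89 ± 0.30), were near 2 and 1 CPM. MRPL46 lost its call without DMSO replicate 2 (adjusted p = 0.0522), and MRPL2 without DMSO replicate 2 or 3 or GTEA7 replicate 2 or 3 (adjusted p from 0.0523 to 0.112). Of 75 cytosolic ribosomal protein genes 17 rose (22.7%, against 12%) and 0 fell, and the list's median was 0.05. The count that rose was 6 without DMSO replicate 1, 8 without DMSO replicate 3 and 10 without GTEA7 replicate 2. It was 11 without GTEA7 replicate 3 and 30 without GTEA7 replicate 1, and library size only gave 4 higher and 3 lower. Their direction therefore depends on the scaling.

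Many glycolysis genes fell slightly. Of 21 members 12 fell (57.1%, against 10.4% of all genes) and 1 rose (4.76%, against 12%). The list's median was -0.14, and 7 fell without DMSO replicate 3 and 7 with GC trends removed. The glucose transporters SLC2A3, at 82.9, 69.6 and 75.9 CPM in DMSO and 41.5, 53.5, 48.2 and 56.9 CPM in GTEA7 (-0.61 ± 0.11), and SLC2A1 (-0.24 ± 0.04) were lower, as was the pyruvate kinase PKM (-0.16 ± 0.04). ALDOC, an aldolase and also a known SREBP target, was the member that rose (0.50 ± 0.07, adjusted p = 0.000242). Among 21 hypoxia targets outside glycolysis 3 rose (14.3%, against 12% of all genes) and 6 fell (28.6%, against 10.4%). ADM, which encodes adrenomedullin, fell from 52.8 ± 2 to 35.5 ± 1.3 CPM (-0.57 ± 0.05), and the mitophagy receptor BNIP3 by 0.21. Members that rose were HIF1A, the oxygen-regulated factor itself (0.44 ± 0.04), the oxidase ERO1A (0.18 ± 0.04) and MXI1 (0.12 ± 0.04). MXI1 lost its call without DMSO replicate 2 or 3 or GTEA7 replicate 2 or 4 (adjusted p from 0.0685 to 0.22).

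**Figure D5:**
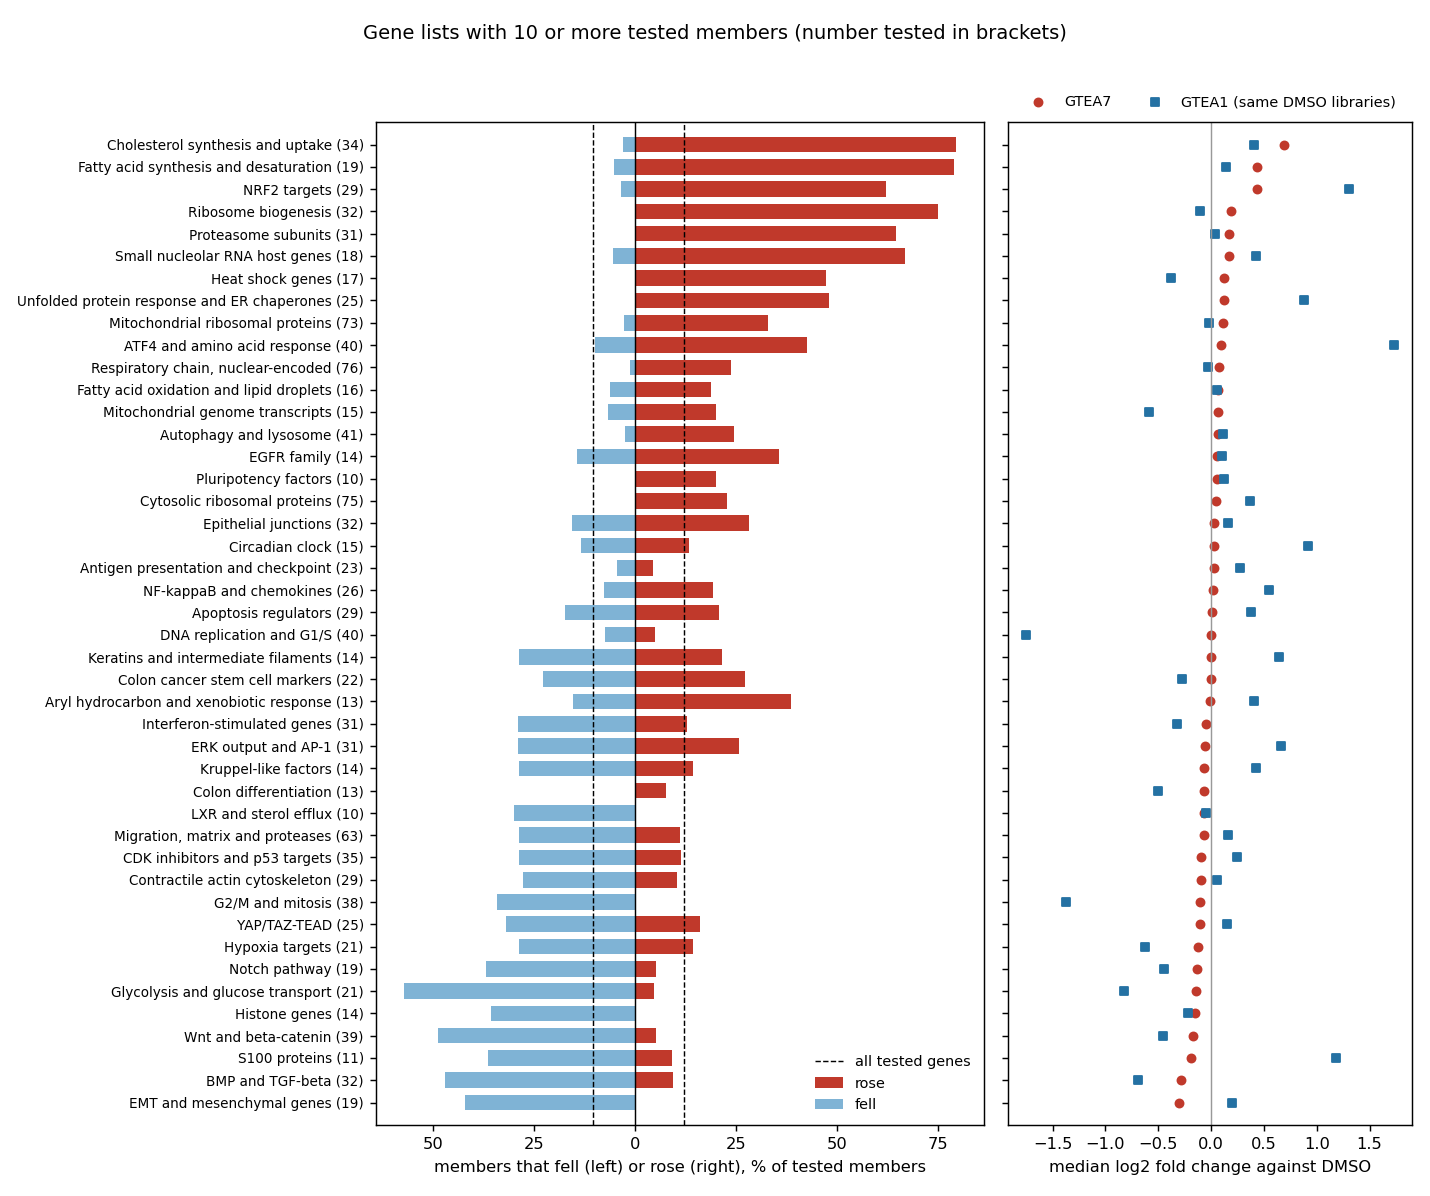
For each gene list with at least 10 tested members: left, the percentage of members that rose or fell with GTEA7 (x axis), with dashed lines at 12% and 10.4%, the shares over all tested genes; right, the median log2 fold change with GTEA7 (circles) and GTEA1 (squares). Cholesterol genes lead the rises with a median of 0.69; BMP and TGF-beta genes are drawn there as 1 list, separate from the BMP outputs of the text.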

How the data were processed

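RNA was extracted with TRIzol, selected on poly-T, fragmented, primed with random hexamers and sequenced on an Illumina NovaSeq, per the labels' protocols. The deposited table gives raw counts per gene, whole numbers with no normalization, for all 11 libraries. The submitters' processing notes list, with no roles, the aligner STAR, SAMtools 0.1.18, Picard and GATK, the counter HTSeq 0.5.4, and DESeq 1.10.1. Build, annotation, strand setting and the treatment of reads matching several genes: not given in the sources used here. Thus reads of overlapping genes, antisense partners and pseudogenes cannot be told apart.

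All 11 libraries were fitted as 3 groups with edgeR 4.0.16 (R 4.3.3) after filterByExpr and TMM scaling, so that they share 1 estimate of the spread, with 8 residual degrees of freedom before moderation. Quasi-likelihood tests with Benjamini-Hochberg adjustment over 17963 genes were read at 0.05, and a standard error is the log2 fold change divided by the root of its F. Of 61464 IDs, 60370 had a symbol. GC content came from GENCODE v29 transcripts and promoter windows from RefSeq (GRCh38.p14).

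The comparison and the 51 gene lists were chosen with earlier results of these data known. By rule the text names the 12 largest rises and falls, the 6 smallest adjusted p-values in each direction, up to 5 members of a list with the smallest adjusted p, all members where 5 or fewer moved one way, and fixed markers. A few further members (among them LTBP3, SPRED2, DUSP4, DUSP5, NIP7, PNO1, PSMD14 and genes given without passing) were named after their values were seen. Alternatives were DESeq2's size factors, library size only, no filter, at least 1 CPM in 3 libraries, the DMSO and GTEA7 libraries alone, a replicate block, limma-voom (limma 3.58.1), DESeq2's Wald test (DESeq2 1.42.0) and leaving out each library; the removal of GC trends was added after seeing the data. Some list members are counted but not reported here by name.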

Additional observations from a re-analysis of the deposited data

Results flagged for a closer look

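Within the 4 GTEA7 libraries, 237 levels were examined for 1 library standing apart from the other 3 (Dixon's ratio above 0.829), and 18 did (7.59%), where chance gives about 1 in 20. FDFT1, squalene synthase, stood at 38.3 CPM in replicate 4 against 6.16 to 7.06 CPM in the others.

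Replicate 4 was also apart for ATF4 (277 CPM, others 298 to 299), HIF1A (233 CPM, others 249 to 251), SLBP (115 CPM, others 121 to 122), XBP1 (60.6 CPM, others 56 to 56.2), EIF2AK3 (28 CPM, others 24.7 to 25), SPRY4 (111 CPM, others 105 to 106) and the share of counts from the mitochondrial genome (15.3%, others 15%).

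Replicate 1 was apart for LIPG (23.6 CPM, others 26.9 to 27.4), BMP4 (253 CPM, others 260 to 261), SKIL (30.9 CPM, others 33.3 to 33.7) and the pseudogene SCDP1 (2.59 CPM, others 1.53 to 1.64). Replicate 2 was apart for RNF43 (38.2 CPM, others 40.2 to 40.5), ZNRF3 (36.1 CPM, others 37.8 to 38) and ADM (33.6 CPM, others 36.1 to 36.3). Replicate 3 was apart for the collagen genes COL6A1 (119 CPM, others 130 to 132), COL6A2 (103 CPM, others 112) and VIM (1.06 CPM, others 1.38 to 1.44).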

How the results depend on the processing

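Of 233 named genes 217 were called, 178 of these kept their call under every alternative, and 0 called genes changed sign. With library size as the only scaling 1255 genes were higher and 2954 lower. At least 2-fold changes were found in 160 genes without the low-count filter and in 50 with DESeq2's test. Leaving out 1 library at a time gave 2973 to 3971 changed genes, 1600 to 2199 higher, 1373 to 1772 lower, 103 to 126 by at least 2-fold, and 12575 to 13204 differing between the extracts. Same-numbered DMSO and GTEA7 libraries deviated from their group means with correlations from -0.01 to 0.0229 over 3 pairs. Other pairs of DMSO and GTEA7 libraries ranged from -0.03 to 0.0423. These values gave no sign of pairing by number, but so few pairs cannot exclude it. The replicate block gave 4087 changed genes, 2180 higher and 1907 lower, 120 by at least 2-fold, and 13016 between the extracts. The block ended the calls of AHRR, RBPJ, SMAD2, PHGDH, MXI1, LCN2 and S100A3 among the named genes.

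Sign changes were seen only in genes that were not called: FDFT1 (-0.28 without GTEA7 replicate 4, up to 2.39 without DMSO replicate 2), SOX9 (-0.040 with library size only), SOX2 (-0.061 without DMSO replicate 2 and -0.056 without GTEA7 replicate 3, up to 0.40 without GTEA7 replicate 1), SNAI2 (0.072 without DMSO replicate 3, down to -0.41 without GTEA7 replicate 4) and CDKN1A. CDKN1A came to 0.0017 with DESeq2's size factors, 0.0017 with DESeq2's test, 0.0078 without the filter, 0.023 without DMSO replicate 2 (-0.034 without DMSO replicate 1), 0.0043 without GTEA7 replicate 3, 0.013 without GTEA7 replicate 4 and 0.073 with GC trends removed. The cause was not tested.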

Other observations

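Kruppel-like factors, a family of zinc finger regulators of growth and differentiation, moved in both directions: 4 of 14 tested members fell (28.6%) and 2 rose (14.3%), against 10.4% and 12% of all genes. KLF10, a known early target of TGF-beta, stood at 124, 131 and 122 CPM in DMSO and 97.6, 98.2, 103 and 102 CPM in GTEA7 (-0.33 ± 0.04, adjusted p = 2.27e-09), with every GTEA7 library lower. KLF7 (-0.39 ± 0.06), KLF2 (-0.49 ± 0.09) and KLF12 (-0.27 ± 0.05) fell too, while KLF11 (0.41 ± 0.09) and KLF9 (0.36 ± 0.09), a glucocorticoid-responsive member, rose. All 6 calls held under every alternative. Among 14 tested keratins and intermediate filament genes 3 rose (21.4%, against 12% of all genes) and 4 fell (28.6%, against 10.4%). KRT23, an epithelial keratin, stood at 12.3, 13.2 and 13.2 CPM in DMSO and 24.8, 23, 23.1 and 24.8 CPM in GTEA7 (0.88 ± 0.08, adjusted p = 4.64e-13). KRT15, a basal keratin, stood at 9.4, 7.67 and 7.11 CPM in DMSO and 13.2, 15.7, 13.2 and 15.2 CPM in GTEA7 (0.83 ± 0.10, adjusted p = 1.8e-08), and KRT19 rose by 0.21. In these genes the groups did not overlap. KRT8, a keratin of simple epithelia, fell slightly (-0.16 ± 0.03), and its partner KRT18 (-0.12 ± 0.04) did so but not without DMSO replicate 2 or 3 or GTEA7 replicate 1 (adjusted p from 0.0717 to 0.136). The epithelial keratin KRT80 fell (-0.40 ± 0.15), but not without DMSO replicate 1 or 2 or any of GTEA7 replicates 1 to 3 (adjusted p from 0.0547 to 0.248), and VIM is described above.

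Of 11 tested S100 genes, which encode small calcium-binding proteins, 4 fell (36.4%) and 1 rose (9.09%), against 10.4% and 12% of all genes. S100A10, a partner of annexin at the membrane, stood at 96.9, 101 and 97.5 CPM in DMSO and 67.3, 68.7, 67 and 69.4 CPM in GTEA7 (-0.53 ± 0.04, adjusted p = 9.67e-15). All 4 GTEA7 libraries were lower. S100A11 fell by a small step (-0.18 ± 0.04). The other three calls were each lost without some single libraries: S100A13 (-0.50 ± 0.16) was lost without any 1 of the DMSO libraries or GTEA7 replicate 1 or 2 (adjusted p from 0.0521 to 0.0917), S100A3 (-0.59 ± 0.21) without DMSO replicate 2 or 3 or GTEA7 replicate 2, 3 or 4 (0.0505 to 0.167), and S100A16, which rose (0.12 ± 0.04), without DMSO replicate 1 or 3 or GTEA7 replicate 1 or 2 (0.0708 to 0.18). Among 26 genes tied to NF-kappaB and chemokines 5 rose (19.2%) and 2 fell (7.69%), against 12% and 10.4% of all genes. The cytokine gene LIF (0.52 ± 0.05) and IL18 (0.33 ± 0.04) rose, and the pathway's feedback inhibitors NFKBIA (-0.42 ± 0.07) and TNIP1 (-0.25 ± 0.05) fell. CXCL16 (0.17 ± 0.05), ICAM1 (0.41 ± 0.15) and LCN2 (0.96 ± 0.35) rose as well, but none of these held without DMSO replicate 2 (adjusted p = 0.21, 0.102 and 0.0572).

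Of 35 p53 targets and CDK inhibitor genes 10 fell (28.6%) and 4 rose (11.4%), against 10.4% and 12% of all genes. The antiproliferative gene BTG2 (-0.47 ± 0.06) and the DNA damage sensor DDB2 (-0.37 ± 0.06) fell, and GDF15 (0.48 ± 0.05), a stress cytokine gene, and the death receptor FAS (0.40 ± 0.08) rose. CCNG1, a cyclin gene, rose (0.14 ± 0.04), but not without DMSO replicate 3 (adjusted p = 0.0551), and TRIAP1 rose (0.18 ± 0.06), but not without any 1 of the DMSO libraries or GTEA7 replicate 1 or 3 (adjusted p from 0.0616 to 0.169). Of 29 actin cytoskeleton genes 8 fell (27.6%, against 10.4% of all genes) and 3 rose (10.3%, against 12%). Without GTEA7 replicate 3 these counts were 4 and 1, and without DMSO replicate 3 they were 5 and 1. FLNA, the actin cross-linker filamin, fell (-0.32 ± 0.04), as did the myosin gene MYH9 (-0.20 ± 0.04). CALD1, the actin-binding caldesmon, rose (0.22 ± 0.03), as did CNN3 (0.11 ± 0.04), a calponin gene, and the tropomyosin TPM4 (0.10 ± 0.03). CNN3 was lost without DMSO replicate 1 or 3 or GTEA7 replicate 3 (adjusted p from 0.0689 to 0.123) and TPM4 without DMSO replicate 2 or 3 or GTEA7 replicate 2 or 3 (0.0574 to 0.142). With library size only CCNG1, TRIAP1, CNN3, TPM4 and S100A16 lost their calls (adjusted p from 0.0646 to 0.353), and with GC trends removed CCNG1, TRIAP1, CNN3, TPM4, S100A3 and KRT80 did (0.0689 to 0.147). Of 41 tested genes of lysosomes and autophagy 10 rose (24.4%, against 12%) and 1 fell (2.44%, against 10.4%), and 6 rose without DMSO replicate 2. SQSTM1, a cargo receptor that is also an NRF2 target, rose from 97.3 ± 9.7 to 137 ± 7 CPM (0.49 ± 0.06), and the kinase gene ULK1 was the member that fell (-0.31 ± 0.06).

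Among 738 tested processed pseudogenes, as typed in GENCODE v29, 56 rose (7.59%) and 8 fell (1.08%), against 14.9% and 12.4% of 13304 protein-coding genes. How reads were divided between pseudogenes and their parents is not stated.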
